A study of Mus musculus with 9 samples.

Results

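The cells described here were the Osr1-expressing mesenchymal cells of the posterior forelimb bud in which no transcript of Shh, the ligand of the polarizing region, was captured. They were picked from all libraries by transcripts per cell: a cell passed the quality filters (more than 2500 detected genes, fewer than 200000 unique molecular identifiers (UMIs, each standing for 1 captured transcript), and under 10% mitochondrial UMIs), carried at least 3 UMIs of the limb mesenchyme gene Prrx1, none of the muscle, epithelial, endothelial and macrophage genes Lbx1, Epcam, Cdh5 and Tyrobp, at least 2 UMIs of Osr1, at least 1 UMI of Hand2, and none of Shh, Pax1 and Creb5. Of 52432 cells of good quality, 34671 met the conditions on Prrx1 and the 4 lineage genes and are called mesenchymal cells here, and 3050 of these (8.80%) met all conditions. They are called posterior Osr1 cells below. A count of 0 does not show that a cell lacks the transcript: mesenchymal cells with a Shh UMI made up 4.60% of the mesenchyme on average over the Wt libraries, and 2.32% when every cell was thinned to 10000 UMIs.

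The study used single-cell RNA sequencing to ask how limb bud mesenchymal progenitors change when Grem1, a secreted BMP antagonist, is transcribed at a reduced level. Forelimb buds of mouse embryos at E10.75 were dissociated with collagenase D, and each library held the pair of forelimb buds of 1 embryo on a Swiss Albino background. There were 3 wildtype (Wt) libraries, 3 libraries homozygous for EC1CRM8Δ/Δ (E1C8Δ/Δ) and 3 homozygous for EC1CRM5Δ/Δ (E1C5Δ/Δ). Both mutant alleles are germline deletions that remove sets of limb bud enhancers of Grem1 from every cell, without Cre and without a transgene, and mutant forelimbs of either genotype lose a digit on the anterior side. The E1C8Δ/Δ and E1C5Δ/Δ libraries were each compared with the same 3 Wt libraries, so these comparisons share their control samples.

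The posterior limb bud is patterned by the transcription factors Hand2, Tbx3 and the 5′ Hoxd genes, which act upstream of Shh in the polarizing region. SHH secreted from that region is bound by the receptor Ptch1 on neighbouring cells and raises the transcription of Ptch1 and Gli1 there, and it sustains Grem1, which in turn shields the FGF signals of the apical ectodermal ridge from BMP. Osr1 encodes a zinc finger protein that marks lateral plate and limb connective tissue progenitors. Proximal limb identity is tied to retinoic acid and the homeobox genes Meis1 and Meis2, and Cyp26b1, an enzyme of the distal bud, breaks retinoic acid down.

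The posterior Osr1 cells carried the markers of posterior limb mesenchyme. Osr1 (chr12:9570116-9581500, mm10) and Hand2 (chr8:57320983-57324633) were used to choose the cells and are given only as a description: the median per cell lay between 3 and 5 UMIs for Osr1 and between 3 and 12 UMIs for Hand2, depending on the library. Tbx3 (chr5:119670669-119684724), a T-box repressor expressed at the limb bud margins, had a UMI in 81.4% of the cells in the median library, against 11.6% of erythroid cells, which should lack it. Prdm1 (chr10:44437177-44528501), a transcription factor of the polarizing region and its surroundings, had a UMI in 24.6% of the cells against 2.28% of erythroid cells. When every cell was thinned to 10000 UMIs, the shares were 57.4% against 3.64% for Tbx3 and 9.21% against 0.503% for Prdm1, so both stood above free RNA at equal depth, although most cells had no Prdm1 UMI. At that depth the shares were 31.3% and 3.19% in the other mesenchymal cells. In mesenchymal cells with a Shh UMI they were higher, at 64.2% and 19.3%. The limb mesenchyme genes Pdgfra and Tbx5 had a UMI in 95.6% and 93.5% of the cells. Of all mesenchymal cells with 2 or more Osr1 UMIs and none of Shh, Pax1 and Creb5, 89.97% also carried Hand2, with a range of 82.6% to 95.8% over the libraries. Hand2 is a gene of the rule, and in the median library a Hand2 UMI was also found in 22.8% of erythroid cells and 69.6% of the other mesenchymal cells, so a single UMI is not read as expression.

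The number of posterior Osr1 cells per library was uneven: 386, 679 and 68 in Wt replicates 1 to 3, 39, 419 and 560 in E1C8Δ/Δ, and 307, 101 and 491 in E1C5Δ/Δ. Their median depth ran from 18657 UMIs in E1C8Δ/Δ replicate 2 to 51522 UMIs in Wt replicate 3, and the 2 smallest sets came from libraries with 957 and 604 cells of good quality. No barcode was shared between the posterior Osr1 cells of different libraries, whereas pairs of libraries shared 320 barcodes in all over the cells of good quality. Summed markers of other lineages were low in the posterior Osr1 cells: muscle progenitor markers between 1.07 and 10.3 counts per 1000000 UMIs (CPM), epithelial markers between 3.85 and 8.58 CPM, endothelial markers at most 3.38 CPM and trunk and intermediate mesoderm markers at most 2.77 CPM, with Pax8 and Nkx3-2 at 0 in every library. The muscle, epithelial and endothelial sums include Lbx1, Epcam and Cdh5. The rule set these genes to 0, so those sums were low in part by choice. Erythroid transcripts were the exception, at 1544 to 6648 CPM in Wt, 296 to 13756 CPM in E1C8Δ/Δ and 238 to 2120 CPM in E1C5Δ/Δ. Of the 3050 cells, 539 ranked among the cells with the most simulated doublets in their 30 nearest neighbours. How many cells were flagged per library was fixed in advance. The flagged cells are called neighbours of simulated doublets below. The share of posterior Osr1 cells and the tests across genes were also computed without them.

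At the thresholds of the rule the levels changed gradually. The 1042 posterior Osr1 cells with exactly 2 Osr1 UMIs had 102 CPM of Tbx3 over the pooled libraries, and the 2172 cells just outside, with 1 Osr1 UMI, had 79.8 CPM. Meis2 was at 281 CPM just inside and 226 CPM just outside, and the distal gene Lhx2 at 61.7 and 74.9 CPM. At the other threshold, the 361 cells with exactly 1 Hand2 UMI had 56.2 CPM of Tbx3 and 124 CPM of Hoxd11, and the 340 cells with none had 42.6 and 85.7 CPM.

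The posterior Osr1 cells were set beside 3 other gates of the same mesenchyme: 1287 cells with Shh, 340 cells with Osr1 but no Hand2, and 12714 cells with Hand2 but no Osr1, of which the second and the third also lacked Shh, Pax1 and Creb5. UMIs were summed for each library and gate, and levels were compared within libraries with edgeR's quasi-likelihood test, with library as a covariate and p-values adjusted by the Benjamini-Hochberg method over 13120 genes. The gates were drawn from the same cells' counts and the cells had been proposed with Tbx3 and Prdm1 in view, so genes that vary with the gating genes from cell to cell were bound to differ to some degree. A cell with few UMIs also more easily counts as lacking Hand2 or Osr1. The counts below are read against the share of all genes that passed the threshold of 0.05.

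Compared with the Shh cells (8 libraries with 20 or more cells in both gates), the posterior Osr1 cells had a proximal profile. All 9 proximal genes were higher, with a median log2 difference of 1.22, and all 9 distal genes were lower, with a median of −1.43, where 30.8% of all tested genes passed, 14.5% higher and 16.4% lower. Meis2 averaged 358 ± 70.1 CPM (SD over 9 libraries) in the posterior Osr1 cells and 135 ± 39.7 CPM (SD over 8 libraries) in the Shh cells. Rarb, the retinoic acid receptor beta, averaged 20.3 ± 6.18 CPM and 6.16 ± 2.47 CPM, a 3.21-fold difference. Shox2, a homeobox gene of the proximal limb skeleton, averaged 738 ± 73.2 CPM and 276 ± 36.0 CPM, and each of these genes was higher in 8 of 8 libraries. In the opposite direction, Hoxa13, the Hox gene of the future hand, averaged 1.60 ± 1.64 CPM against 31.6 ± 13.3 CPM, and the distal cofactor Lmo2 7.42 ± 2.49 CPM against 73.8 ± 14.8 CPM. Immediate-early and heat-shock genes, which respond to dissociation, were also higher than in the Shh cells for 7 of 9 genes tested, with a median log2 difference of 0.37, and their part in the other differences was not tested.

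Among the genes that exceeded the Shh cells by the largest fold, with at least 20 CPM in the higher gate, were Hgf, Slitrk6, Smoc1, Nr2f1 and Nr2f2. Hgf, the ligand that guides migrating muscle precursors through the Met receptor, was 4.19-fold higher, at 24.6 ± 6.75 CPM against 5.97 ± 2.67 CPM. Smoc1 encodes a secreted BMP antagonist and was 3.69-fold higher, and the orphan nuclear receptors Nr2f1 and Nr2f2 were 3.29-fold and 3.28-fold higher. The 6 furthest in the other direction were Cck, Hoxa13, Tfap2b, Lmo2, Hey1 and Zic2, of which Cck, a peptide hormone gene, stood at 0.137 CPM in the posterior Osr1 cells and 28.9 CPM in the Shh cells.

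Signalling genes separated the gates as well. All 9 FGF response genes were lower than in the Shh cells, with a median log2 difference of −1.03, and Etv4, a transcription factor induced by FGF, was at 13.9 ± 4.82 CPM against 47.6 ± 7.71 CPM. All 4 BMP ligand genes and 8 of 9 BMP target genes were lower, among them Bmp4 at 73.8 ± 12.4 CPM against 263 ± 39.8 CPM and Msx1, a homeobox gene induced by BMP, at 51.1 ± 15.5 CPM against 275 ± 50.6 CPM. Grem1 was 2.39-fold higher, at 24.0 ± 12.5 CPM against 9.59 ± 3.26 CPM, in 8 of 8 libraries. Among the hedgehog response genes, Ptch1 was lower at 63.4 ± 15.5 CPM against 136 ± 41.8 CPM, and Hhip, an inhibitor that binds hedgehog ligands, was higher at 3.55 ± 1.53 CPM against 1.54 ± 0.450 CPM. Gli1 was at 15.3 ± 3.98 CPM against 14.8 ± 4.07 CPM (log2 difference 0.05 ± 0.10 SE, adjusted p = 0.736), higher in 5 of 8 libraries.

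Of the 8 posterior genes that were tested and not part of the rule, 6 were lower than in the Shh cells. Hoxd13 stood at 33.5 ± 7.93 CPM against 88.3 ± 29.7 CPM, Tbx2, a T-box repressor close to Tbx3, at 36.9 ± 9.48 CPM against 63.7 ± 16.2 CPM and Prdm1 at 13.5 ± 4.34 CPM against 24.0 ± 9.20 CPM. Tbx3 was at 120 ± 15.8 CPM and 140 ± 44.4 CPM (log2 difference −0.19 ± 0.11 SE, adjusted p = 0.181), and Hoxd11 at 286 ± 27.7 CPM and 341 ± 77.0 CPM (−0.24 ± 0.11 SE, adjusted p = 0.0940). Of the 13 connective tissue genes, 10 were higher in the posterior Osr1 cells, including Osr2, a paralog of Osr1, at 30.7 ± 22.9 CPM against 10.5 ± 5.39 CPM.

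**Figure D1:**
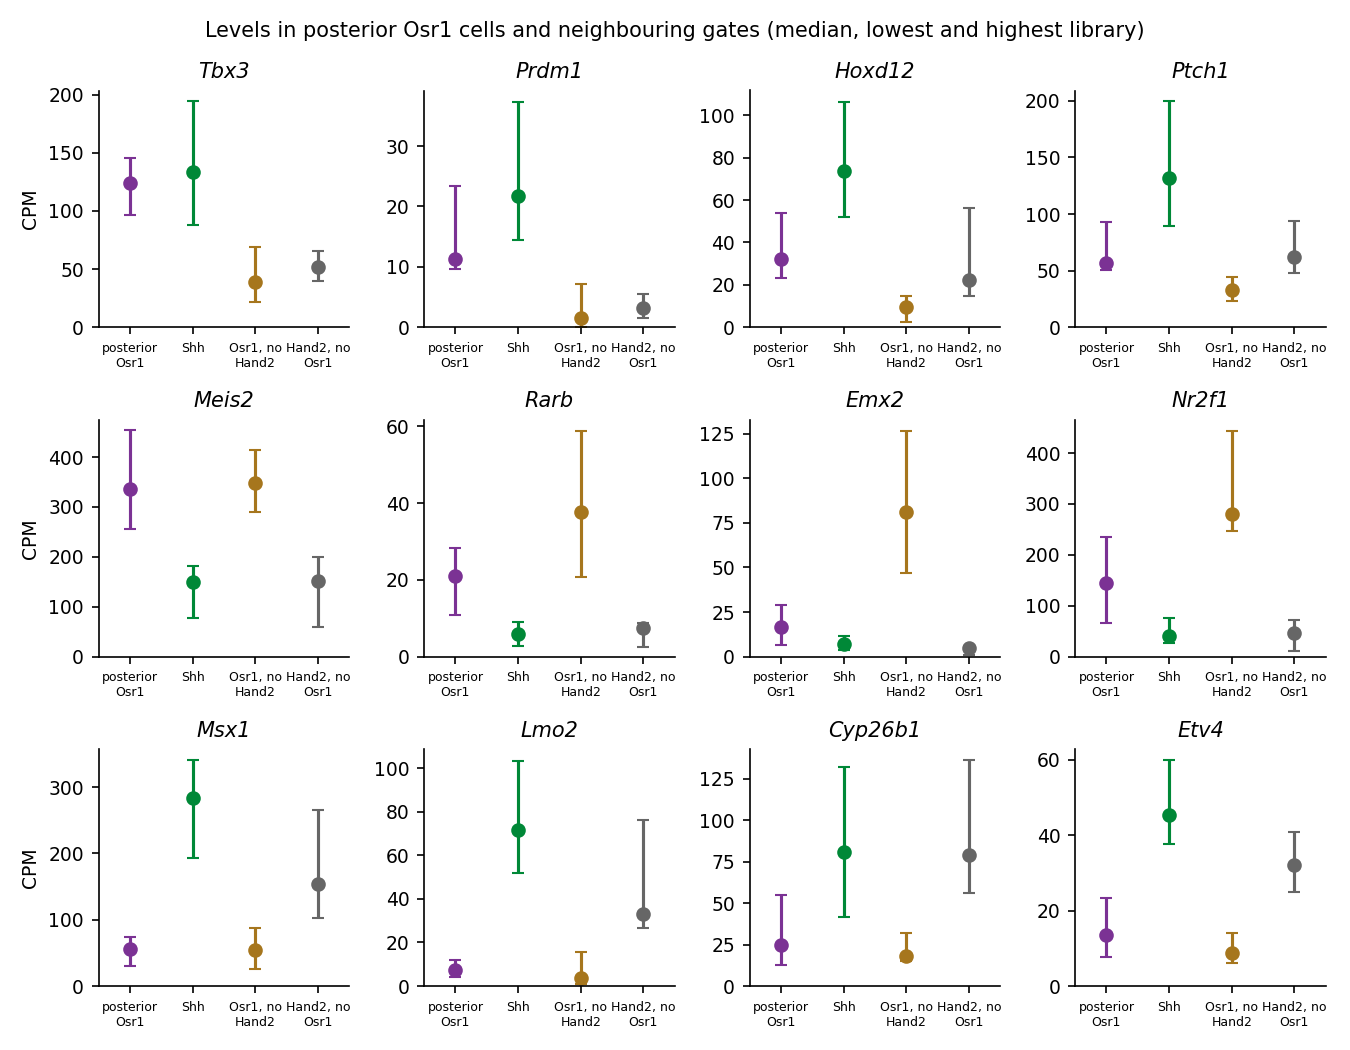
Levels of selected genes in the 4 gates of forelimb bud mesenchyme, in CPM on linear axes that start at 0, where points are medians over libraries and bars run from the lowest to the highest library. Meis2 lies at 256 to 454 CPM in the posterior Osr1 cells against 76.4 to 182 CPM in the Shh cells, whereas Tbx3 overlaps between these gates and lies lower where either Osr1 or Hand2 is missing.

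Against cells with Osr1 but without Hand2, the posterior Osr1 cells had more transcripts of posterior genes and fewer of several anterior ones. In the 6 libraries compared, 984 genes (7.5%) passed the threshold, 603 higher (4.6%) and 381 lower (2.9%) in the posterior Osr1 cells. The balance of directions over all genes was not stable: it was 355 higher and 641 lower with DESeq2 in place of edgeR, 495 and 498 where 2 Hand2 UMIs were asked for, and 32 and 47 on cells thinned to 10000 UMIs. Of the 8 posterior genes, 7 were higher, with a median log2 difference of 1.49, and all 6 Hox genes of the zeugopod level were higher. Tbx3 was at 120 ± 15.8 CPM against 43.6 ± 19.7 CPM, Tbx2 at 36.9 ± 9.48 CPM against 8.98 ± 6.63 CPM and Hoxd11 at 286 ± 27.7 CPM against 88.2 ± 45.8 CPM, each in 6 of 6 libraries. Ptch1 and Gli1 were also higher, 1.92-fold and 2.03-fold, but neither passed on cells thinned to 10000 UMIs (adjusted p = 0.302 and 0.829, edgeR). Proliferation genes moved with this comparison, 5 of 8 being higher with a median log2 difference of 0.32, and so did epithelial markers, of which 2 of 4 tested were lower. In the Osr1 cells without Hand2 the summed epithelial markers were at 12.2 to 15.8 CPM in Wt, 7.95 to 71.1 CPM in E1C8Δ/Δ and 9.06 to 17.9 CPM in E1C5Δ/Δ. These ranges include Wt replicate 3, E1C8Δ/Δ replicate 1 and E1C5Δ/Δ replicate 2, which had 3, 4 and 13 such cells and were not compared. In the posterior Osr1 cells the sum was at 3.85 to 8.58 CPM, with Epcam, a gene of the rule, at 0 in both gates. The part of either group in the other differences was not tested.

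Of 7 anterior genes 3 were lower than in the Osr1 cells without Hand2, Irx3, Irx5 and Runx2, and all 7 had log2 differences below 0. Of the proximal genes, Rarb and Emx2 were among those lower, whereas Shox2 was higher, and of 9 distal genes 5 were higher. Irx3, a homeobox gene of the anterior-proximal limb bud, was at 98.2 ± 53.2 CPM there and 31.98 ± 10.98 CPM in the posterior Osr1 cells, and Emx2, a homeobox gene of the shoulder region, at 81.6 ± 31.4 CPM and 16.1 ± 6.66 CPM. The cartilage collagen gene Col2a1 was at 96.6 ± 23.0 CPM and 44.0 ± 15.6 CPM, and in all 3 genes the posterior Osr1 cells were lower in every library compared. The 6 genes furthest below were Igfbp5, Hoxc4, Emx2, Gria2, Igfbp3 and Gdnf, and the 6 furthest above were Hand2os1, Dkk1, Tbx2, Hoxd12, Hoxd11 and Tbx3. Hand2os1 is transcribed beside Hand2, a gene of the rule, and its 9.28-fold difference is not separate from it. On cells thinned to 10000 UMIs, where the gates hold other cells and fewer genes are tested, 79 genes passed. The calls of Igfbp5, Hoxd12, Hoxd13, Gria2, Igfbp3, Gdnf, Ptch1 and Gli1 were all lost on these thinned cells. There the log2 difference of Hoxd12 went from 1.72 to 0.47 and that of Igfbp5 from −2.26 to −0.69. Dkk1, a secreted Wnt antagonist, passed in 3 of 9 fits that left 1 library out.

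Against cells with Hand2 but without Osr1, the posterior Osr1 cells had more transcripts of proximal genes and fewer of distal ones. In 9 libraries, 3739 genes (28.5%) passed, 1719 higher (13.1%) and 2020 lower (15.4%). Of 9 proximal genes 8 were higher, of 9 distal genes 8 were lower, and all 9 FGF response genes were lower. Nr2f1 was at 147 ± 47.0 CPM against 42.9 ± 16.6 CPM, Rarb at 20.3 ± 6.18 CPM against 6.34 ± 2.21 CPM and Emx2 at 16.1 ± 6.66 CPM against 4.16 ± 1.80 CPM, each higher in 9 of 9 libraries. Cyp26b1 (chr6:84571414-84593908) was at 27.8 ± 13.6 CPM against 87.3 ± 26.9 CPM and Sall3, a zinc finger gene of the distal bud, at 13.5 ± 5.09 CPM against 49.1 ± 12.8 CPM.

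The posterior genes went in both directions against the Hand2 cells without Osr1. Tbx3 was 2.37-fold higher and Prdm1 4.03-fold higher, both in 9 of 9 libraries, and Tbx2 and Hoxd12 were higher as well. Hoxd10 was lower, at 77.2 ± 10.9 CPM against 96.5 ± 11.9 CPM, and so was Bmp2, at 3.07 ± 1.00 CPM against 4.11 ± 1.67 CPM. Hoxd11 was at 286 ± 27.7 CPM against 319 ± 52.8 CPM with an adjusted p of 0.341. Ptch1 was at 63.4 ± 15.5 CPM against 65.6 ± 14.04 CPM (log2 difference −0.01 ± 0.08 SE, adjusted p = 0.933) and Gli1 was 1.31-fold higher, with an adjusted p of 0.140 on thinned cells. Asb4, Lhx2, Msx2 and Rspo4, which form the study's score for peripheral progenitors, and Lhx9 and Msx1 were all lower, and as the score was chosen on these samples this is not independent evidence of direction. Lhx2, a LIM homeobox gene of the distal mesenchyme, was at 46.9 ± 11.1 CPM against 133 ± 23.5 CPM. The same 7 of 9 immediate-early and heat-shock genes as against the Shh cells were higher here, and their part in the other differences was not tested.

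Within the Hand2 cells without Shh, Pax1 and Creb5, levels followed the Osr1 count. Cells were thinned to 10000 UMIs and classed by Osr1 UMIs: 12460 cells had 0, 1709 had 1, 628 had 2, 392 had 3 or 4 and 106 had 5 or more. As a description without a test, since the cells were grouped by 1 of the rule's genes, pooled Tbx3 went from 71.8 CPM through 114, 136 and 143 to 159 CPM over the 5 classes. Meis2 went from 217 CPM through 349, 471 and 548 to 641 CPM. Rarb went from 9.19 to 36.8 CPM and Prdm1 from 6.40 to 17.9 CPM. In the reverse direction Lhx2 went from 102 CPM through 41.2, 27.2 and 18.9 to 9.43 CPM, and Cyp26b1 from 55.7 to 11.3 CPM. Hand2, a gene of the rule, lay between 242 and 270 CPM in all classes and Hoxd11 between 273 and 278 CPM. These values pool genotypes that took unequal shares of the classes: the 3 E1C5Δ/Δ libraries gave 1088, 579 and 2945 cells to the class with 0 and 3, 2 and 3 cells to the class with 5 or more. In the Wt libraries with at least 20 cells in a class, Rarb was at 6.45, 10.5, 18.6 and 23.0 CPM in the first 4 classes, Meis2 at 183, 263, 436 and 506 CPM, Tbx3 at 69.2, 113, 145 and 149 CPM and Lhx2 at 76.1, 27.0, 19.0 and 12.9 CPM. Hand2 was at 263, 306, 300.4 and 311 CPM there. For the class with 5 or more, a single Wt library with 20 cells met that minimum, and in it Rarb was at 10.0 CPM and Hand2 at 330.0 CPM.

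**Figure D2:**
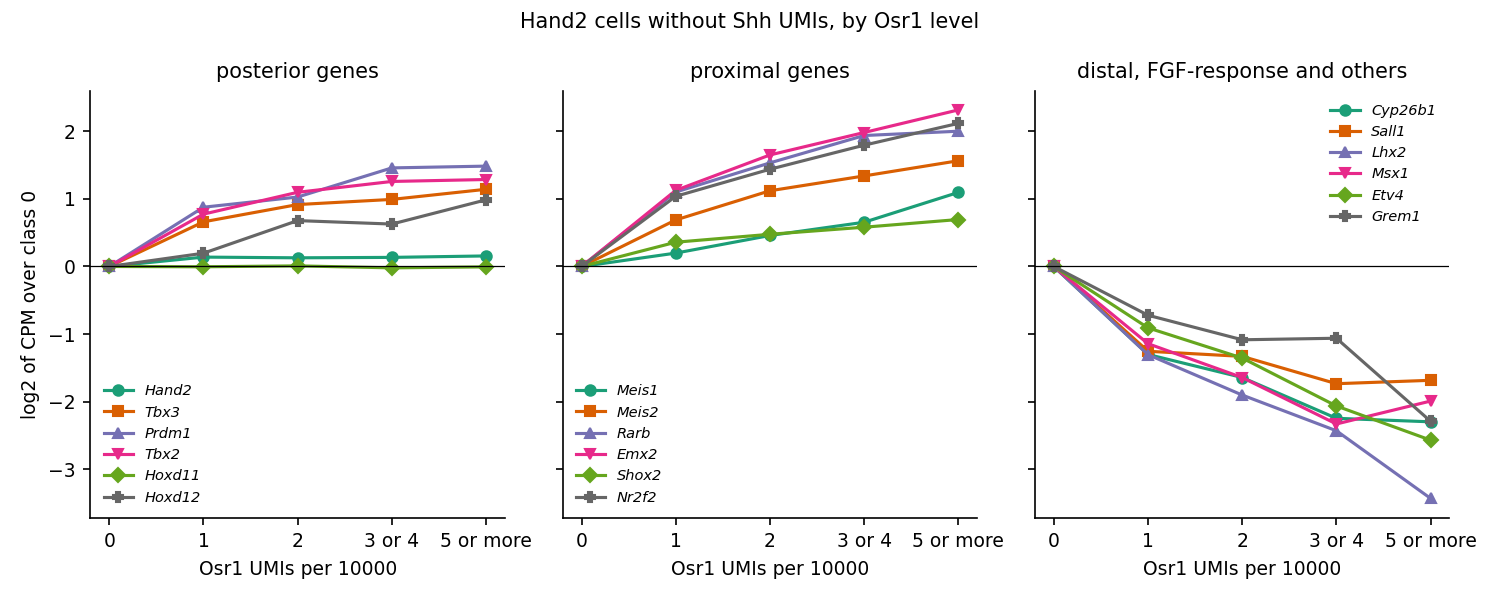
Level of named genes pooled over all genotypes, as the log2 ratio to the cells with 0 Osr1 UMIs, in Hand2-positive cells without Shh classed by their Osr1 UMIs after thinning to 10000 UMIs per cell (12460, 1709, 628, 392 and 106 cells). Meis2, Rarb, Tbx3 and Prdm1 are higher in the classes with more Osr1, Lhx2 and Cyp26b1 are lower, and Hand2 and Hoxd11 stay near 0 on this scale.

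The share of posterior Osr1 cells among mesenchymal cells was compared between genotypes. In Wt it was 9.40%, 12.0% and 11.5% in replicates 1 to 3, in E1C8Δ/Δ 9.49%, 6.39% and 9.24%, and in E1C5Δ/Δ 10.9%, 6.22% and 7.20%. The mutant libraries lay lower on average, and 4 of 6 were below every Wt library, whereas E1C8Δ/Δ replicate 1 and E1C5Δ/Δ replicate 1 lay inside the Wt range. The mean difference was −2.72 percentage points (Wt 10.96 ± 1.37, SD, n = 3, mutants 8.23 ± 1.90, SD, n = 6), with a two-sided exact permutation p of 0.0595, where 0.0119 is the smallest that this design allows. For E1C8Δ/Δ alone the difference was −2.59 points and for E1C5Δ/Δ alone −2.86 points, each with an exact permutation p of 0.2, and 3 against 3 libraries cannot go below 0.1.

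The share was also computed at equal depth. With every cell thinned to 10000 UMIs, the share was 3.85%, 4.50% and 5.71% in Wt, 3.25%, 3.18% and 4.38% in E1C8Δ/Δ and 2.54%, 1.77% and 1.92% in E1C5Δ/Δ. All 3 E1C5Δ/Δ libraries were then below every Wt library, while E1C8Δ/Δ replicate 3 lay inside the Wt range. The difference over both genotypes was −1.85 points with an exact permutation p of 0.0357, and it was also past 0.05 where 3 Osr1 UMIs or 2 Hand2 UMIs were asked for (p = 0.0238 and 0.0357, exact permutation tests). It did not pass without the neighbours of simulated doublets (−2.69 points, exact permutation p = 0.0833) or as a share of all cells of good quality (−1.35 points, exact permutation p = 0.119). With 1 library left out in turn it did not pass in any of 9 exact permutation tests either, with p from 0.0536 to 0.214. The smallest p that these tests allow was 0.0357 without a Wt library and 0.0179 without a mutant library. Without Wt replicate 1 all 6 mutant libraries lay below every Wt library left, with an exact permutation p of 0.0714. All 9 p-values lay above these minima. The difference ranged from −2.22 points without Wt replicate 2 to −3.50 points without Wt replicate 1.

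Osr1 and Hand2 over the whole mesenchyme, which do not depend on a threshold per cell, did not move together. Osr1 was at 22.0, 25.0 and 35.4 CPM in Wt, 32.1, 26.9 and 28.2 CPM in E1C8Δ/Δ and 18.5, 13.2 and 12.7 CPM in E1C5Δ/Δ. The 3 E1C5Δ/Δ libraries were below all others, and the E1C8Δ/Δ libraries lay within the Wt range. Hand2 was at 152, 150 and 169 CPM in Wt, 143, 112 and 113 CPM in E1C8Δ/Δ and 123, 116 and 138 CPM in E1C5Δ/Δ, with every mutant library below every Wt library. Neither gene chose the whole mesenchyme, but genes of the rule were left out of the tests, so these levels are given without a test. Shh cells made up 4.70%, 4.55% and 4.57% of the mesenchyme in Wt, 3.41%, 2.61% and 2.69% in E1C8Δ/Δ and 3.01%, 3.20% and 4.75% in E1C5Δ/Δ.

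**Figure D3:**
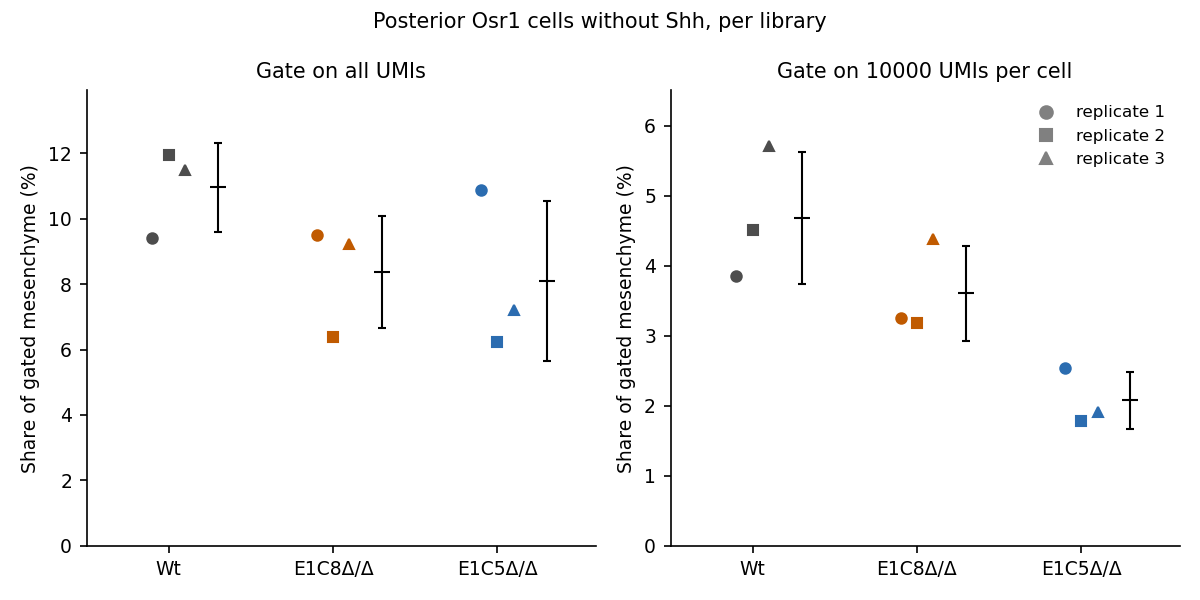
Share of posterior Osr1 cells among mesenchymal cells per library, in percent, with all UMIs and after thinning each cell to 10000 UMIs, where symbols are replicates 1 to 3 and the bar beside them is the mean ± SD. With all UMIs 4 of 6 mutant libraries lie below every Wt library, and after thinning 5 of 6 do, including all 3 of E1C5Δ/Δ.

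Within the posterior Osr1 cells, UMIs were summed per library and the genotypes compared with edgeR's quasi-likelihood test over 12648 genes. Xist, a transcript of female cells, was unevenly spread over the genotypes: as log2(CPM + 1) it was at 5.25, 0.043 and 0 in Wt, 9.50, 10.06 and 3.85 in E1C8Δ/Δ and 9.60, 0 and 9.94 in E1C5Δ/Δ, so that the 4 highest libraries were all mutant. Against Wt, the 6 mutant libraries together had 53 genes past an adjusted p of 0.05 (0.419% of those tested), 20 higher (0.158%) and 33 lower (0.261%), and 12 genes with Xist as a covariate. The Grem1 transcript was lower, as was Osr2, together with the distal genes Cyp26b1, Sall1 and Tfap2b and the connective tissue gene Tcf7l2. The retinoic acid receptor Rarb and the Hox genes Hoxa5 and Hoxa9 were higher. The posterior genes did not pass, with 0 of 8 in either direction and log2 differences from −0.46 to 0.19, and neither did the hedgehog response genes Ptch1, Gli1 and Hhip.

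Grem1 (chr2:113746164-113758646), whose enhancers were deleted, was at 47.6, 25.7 and 39.8 CPM in Wt, 17.0, 12.8 and 11.9 CPM in E1C8Δ/Δ and 16.1, 17.5 and 28.2 CPM in E1C5Δ/Δ. All mutant libraries but E1C5Δ/Δ replicate 3, which exceeded Wt replicate 2, were below every Wt library. Over both genotypes Grem1 was 2.25-fold lower (log2 difference −1.17 ± 0.21 SE, adjusted p = 0.0242, edgeR). Against Wt the log2 difference was −1.52 ± 0.26 in E1C8Δ/Δ (adjusted p = 0.00806, edgeR) and −0.82 ± 0.24 in E1C5Δ/Δ (adjusted p = 0.215, edgeR), and the difference between the mutants had an adjusted p of 0.136. The joint call was lost when 1 of 4 libraries was left out in turn (Wt replicates 1 or 3 and E1C8Δ/Δ replicates 2 or 3), with an adjusted p of at most 0.0937. It was also lost without the neighbours of simulated doublets (adjusted p = 0.0571, edgeR), and on cells thinned to 10000 UMIs the log2 difference was −0.29 with an adjusted p of 0.876. After thinning, E1C8Δ/Δ replicate 1 had fewer than 20 posterior Osr1 cells and was left out of the fit, and fewer UMIs were summed per library. On those thinned cells 36 genes passed in the joint comparison, 13 of them among the 53. Of the 5 secreted BMP antagonists Grem1 alone passed in the joint comparison.

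Osr2 (chr15:35296098-35303305), the paralog of Osr1, was lower in both mutants. It was at 78.5, 52.8 and 40.9 CPM in Wt, 11.1, 13.9 and 11.3 CPM in E1C8Δ/Δ and 28.0, 22.2 and 17.3 CPM in E1C5Δ/Δ. The 3 genotypes did not overlap, with E1C8Δ/Δ lowest. The joint log2 difference was −1.81 ± 0.19 SE (adjusted p = 0.00184, edgeR), a 3.51-fold decrease, and it passed the threshold under all 17 alternative settings. In the rest of the mesenchyme Osr2 was lower by a log2 difference of −1.84, and the test for a different effect in the posterior Osr1 cells gave 0.05 ± 0.17 SE. Osr1 itself, which the rule requires, was at 107, 113 and 123 CPM in Wt, 83.9, 156 and 153 CPM in E1C8Δ/Δ and 99.3, 108 and 80.6 CPM in E1C5Δ/Δ, without an order of the genotypes.

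Of 13 connective tissue genes 2 were lower, Osr2 and Tcf7l2, and all 13 had joint log2 differences below 0 with a median of −0.29. Tcf7l2, a Wnt pathway transcription factor that marks limb connective tissue, was at 171, 166 and 146 CPM in Wt, 123, 124 and 107 CPM in E1C8Δ/Δ and 82.4, 91.9 and 104 CPM in E1C5Δ/Δ. Every mutant library was below every Wt library, a 1.54-fold difference (adjusted p = 0.0120, edgeR, 0.0572 without Wt replicate 2 and 0.175 on thinned cells). Scx, a tendon progenitor gene, had an adjusted p of 0.128 in the joint comparison and of 0.0362 in E1C5Δ/Δ alone, where its values were 62.4, 55.3 and 42.0 CPM against 80.7, 109 and 112 CPM in Wt. In E1C8Δ/Δ it was at 113, 87.0 and 79.3 CPM, overlapping Wt, and the difference between the mutants had an adjusted p of 0.0222. With 1 library left out in turn, Scx passed in 3 of 9 fits for E1C5Δ/Δ against Wt and in 5 of 9 between the mutants, and on thinned cells its adjusted p was 0.188 and 0.0510.

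Of 9 distal genes 2 were lower. Cyp26b1 was at 55.0, 37.8 and 36.1 CPM in Wt, 24.9, 29.9 and 18.9 CPM in E1C8Δ/Δ and 12.8, 13.2 and 21.6 CPM in E1C5Δ/Δ, a 2.17-fold decrease (adjusted p = 0.0234, edgeR). Sall1, a zinc finger gene of the distal bud, was at 18.9, 13.9 and 15.8 CPM in Wt, 6.55, 8.91 and 6.62 CPM in E1C8Δ/Δ and 6.50, 7.18 and 10.9 CPM in E1C5Δ/Δ. Neither gene overlapped between Wt and mutants, and Sall1 decreased 2.02-fold (adjusted p = 0.0242, edgeR). Both calls depended on single libraries: that of Cyp26b1 was lost without Wt replicate 1 or 3 or E1C8Δ/Δ replicate 1 (adjusted p at most 0.0775), and that of Sall1 without any of these or without E1C8Δ/Δ replicate 3 (at most 0.0940). On thinned cells the log2 difference of Cyp26b1 was −0.72 (adjusted p = 0.470, edgeR) and that of Sall1 −0.23 (adjusted p = 0.916, edgeR). Sall1 also missed the threshold without the neighbours of simulated doublets (0.0824) and with 3 Osr1 UMIs (0.0558).

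Of the 4 distal progenitor genes named by the study, also a list chosen on these samples, Tfap2b was lower. This transcription factor gene was at 4.04, 7.01 and 3.43 CPM in Wt, 0.655, 1.59 and 0.927 CPM in E1C8Δ/Δ and 0.141, 0 and 0.745 CPM in E1C5Δ/Δ. All mutant libraries lay below all Wt libraries (adjusted p = 0.00740, edgeR), at levels near the limit of detection, and without Wt replicate 2 the adjusted p was 0.0588. It was 0.0738 without the neighbours of simulated doublets, 0.178 with 3 Osr1 UMIs and 0.0967 with Xist as a covariate. Hoxa13 was at 1.61, 2.79 and 5.27 CPM in Wt and between 0 and 1.91 CPM in the mutants, with an adjusted p of 0.0909. Hoxd13, which is on the same list, was at 33.1, 33.6 and 46.4 CPM in Wt, 26.9, 21.6 and 27.5 CPM in E1C8Δ/Δ and 34.6, 33.0 and 44.9 CPM in E1C5Δ/Δ, with an adjusted p of 0.449.

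The proximal genes leaned the other way, and 1 of 9 passed. Rarb (chr14:16430839-16819156) was at 10.9, 15.6 and 12.1 CPM in Wt, 20.3, 25.6 and 25.0 CPM in E1C8Δ/Δ and 23.9, 21.1 and 28.4 CPM in E1C5Δ/Δ. All 6 mutant libraries were above all Wt libraries, a 1.88-fold increase (log2 difference 0.91 ± 0.15 SE, adjusted p = 0.0166, edgeR), and the call held in 7 of 9 fits with 1 library left out, failing without Wt replicate 1 or 3 (adjusted p at most 0.0713). With Xist as a covariate its adjusted p was 0.105. The log2 difference was 0.89 in E1C8Δ/Δ and 0.92 in E1C5Δ/Δ. Meis2 was at 283, 330 and 258 CPM in Wt, 337, 380 and 454 CPM in E1C8Δ/Δ and 415, 320 and 447 CPM in E1C5Δ/Δ, with E1C5Δ/Δ replicate 2 inside the Wt range (adjusted p = 0.162, edgeR). Over the 9 proximal genes the median log2 difference was 0.43, and 7 were above 0.

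Among Hox genes, Hoxa9 and Hoxa5 were higher. Hoxa9 was at 161, 144 and 120 CPM in Wt, 248, 219 and 218 CPM in E1C8Δ/Δ and 174, 195 and 200 CPM in E1C5Δ/Δ (1.46-fold, adjusted p = 0.0410, edgeR). Hoxa5 was at 21.5, 20.6 and 16.4 CPM in Wt, 28.2, 33.4 and 35.6 CPM in E1C8Δ/Δ and 30.5, 27.5 and 27.5 CPM in E1C5Δ/Δ (1.55-fold, adjusted p = 0.0314, edgeR). Wt and mutants did not overlap for either gene, but with 1 library left out in turn Hoxa9 passed in 2 of 9 fits, those without Wt replicate 1 or E1C5Δ/Δ replicate 3, and Hoxa5 in 3 of 9, those and the one without E1C8Δ/Δ replicate 1. On thinned cells the adjusted p was 0.291 for Hoxa9 and 0.116 for Hoxa5, and with Xist as a covariate 0.175 and 0.145. The other 5 Hox genes of the zeugopod level did not pass.

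**Figure D4:**
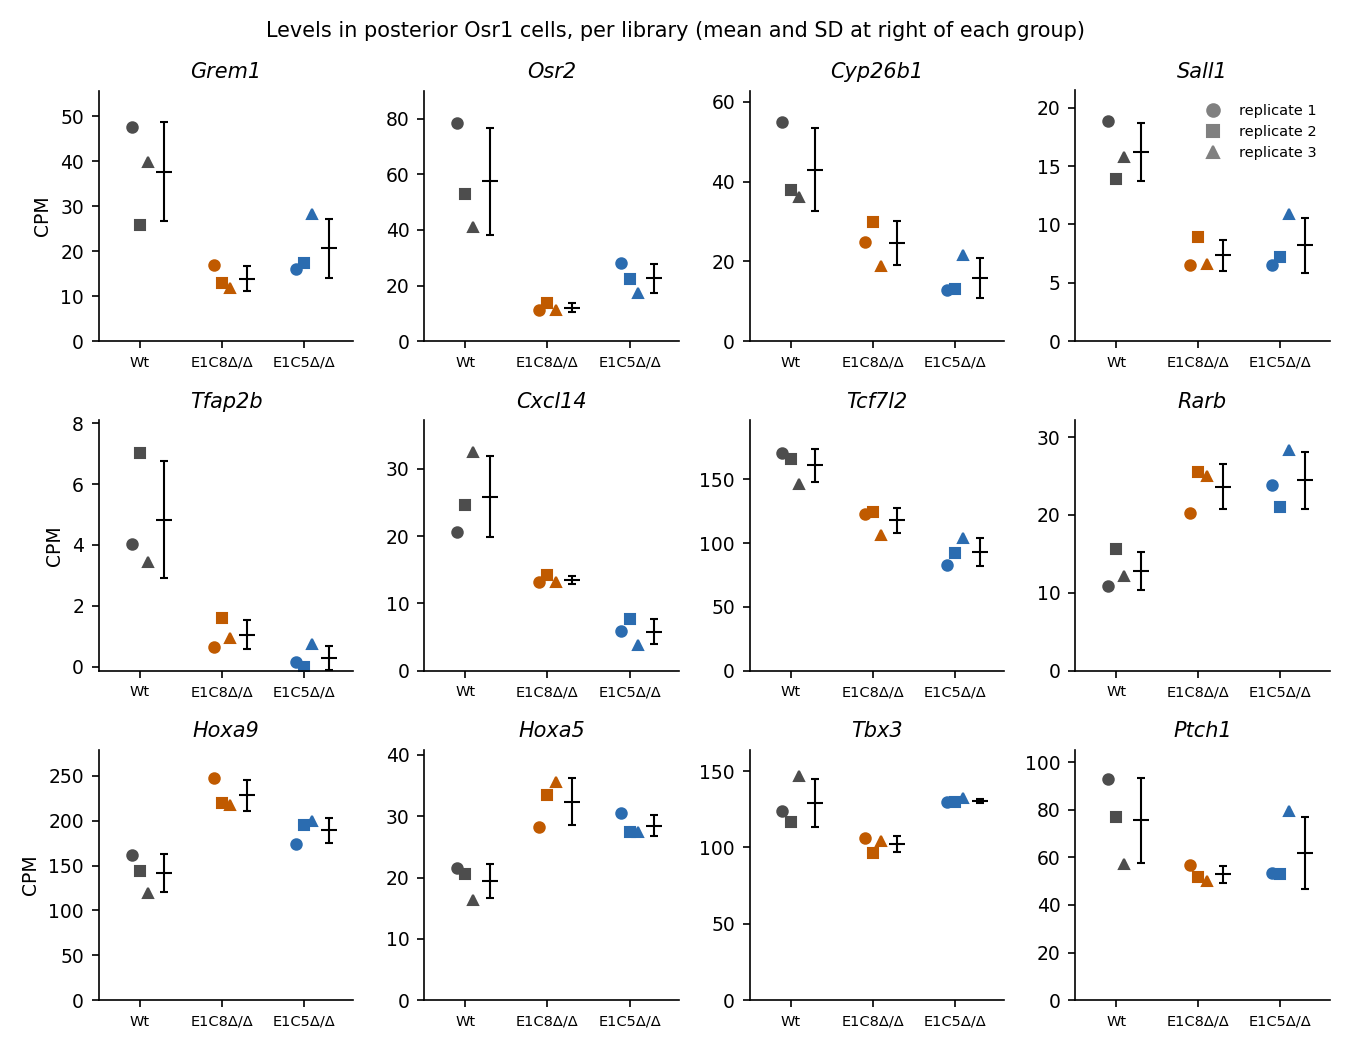
Levels of named genes in the posterior Osr1 cells per library, in CPM on linear axes, where symbols are replicates 1 to 3 and the bar beside them is the mean ± SD. Osr2, Cyp26b1 and Sall1 lie below every Wt library in all 6 mutant libraries and Rarb above, whereas Ptch1 and Tbx3 overlap between Wt and mutants.

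The posterior genes, Ptch1, Gli1 and Hhip did not pass the test between mutants and Wt in these cells. Tbx3 was at 124, 116 and 147 CPM in Wt, 106, 96.1 and 104 CPM in E1C8Δ/Δ and 130, 130 and 132 CPM in E1C5Δ/Δ, so that E1C8Δ/Δ lay below Wt and E1C5Δ/Δ within its range (joint adjusted p = 0.467, E1C8Δ/Δ alone 0.0820, edgeR). Prdm1 was at 13.7, 10.9 and 11.3 CPM in Wt, 17.0, 9.54 and 10.73 CPM in E1C8Δ/Δ and 13.8, 11.0 and 23.5 CPM in E1C5Δ/Δ, without an order. Hand2, a gene of the rule, was at 237, 257 and 239 CPM in Wt, 210, 170 and 190 CPM in E1C8Δ/Δ and 208, 204 and 233 CPM in E1C5Δ/Δ. The rule asks for Hand2 in every cell, so its level here is a description.

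Ptch1 was at 92.8, 76.9 and 57.2 CPM in Wt, 57.0, 51.6 and 50.3 CPM in E1C8Δ/Δ and 53.2, 53.1 and 79.5 CPM in E1C5Δ/Δ (log2 difference −0.42 ± 0.15 SE, adjusted p = 0.244, edgeR). All but E1C5Δ/Δ replicate 3 were below every Wt library. The hedgehog response genes Gli1 and Hhip had joint log2 differences of −0.51 ± 0.17 SE (adjusted p = 0.208, edgeR) and −0.69 ± 0.30 SE (adjusted p = 0.322), so that none of these 3 genes passed the threshold. Ptch1 and Gli1 each passed in 1 of 17 alternative settings. All 4 hedgehog response genes tested had joint log2 differences below 0, with a median of −0.52. In simulated counts for this comparison, 9.5% of changed genes passed at a log2 change of 0.5 and 84% at 1.

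Over all genes, listed or not, those with the largest joint change whose libraries did not overlap were Hist3h2a, Ush1c, Snx10, Rarb, Mterf2, Hoxa5 and Hoxa9 in the higher direction. In the lower direction they were Tfap2b, Eif3j2, Osr2, Cxcl14, Enpp2, Cgnl1, Cyp26b1 and Dysf. Eif3j2 has a near-identical paralog, Eif3j1, and whether the assignment of reads between the pair bears on its level was not tested. Several of these calls rested on single libraries: with 1 library left out in turn, Ush1c passed in 1 of 9 fits, Snx10, Cgnl1 and Dysf each in 2 of 9, and Hist3h2a and Mterf2 each in 5 of 9, whereas Cxcl14 and Enpp2 passed in all 9. Among the genes tested, 4.19% had every mutant library beyond every Wt library. Cxcl14, a chemokine gene, was at 20.6, 24.6 and 32.4 CPM in Wt, 13.1, 14.2 and 13.2 CPM in E1C8Δ/Δ and 5.87, 7.65 and 3.88 CPM in E1C5Δ/Δ. Its genotypes formed 3 separate ranges with E1C5Δ/Δ lowest (joint adjusted p = 0.00270, E1C8Δ/Δ against E1C5Δ/Δ 0.00735, edgeR). Enpp2, which encodes the lysophosphatidic acid producing enzyme autotaxin, was at 6.02, 9.18 and 10.3 CPM in Wt and between 2.23 and 4.03 CPM in the mutants (adjusted p = 0.00457, edgeR, and 0.101 with Xist as a covariate).

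The mutant genotypes were also set beside each other. The posterior Osr1 cells of every E1C8Δ/Δ library were shallower than those of every other library. Their median was 29947, 18657 and 26098 UMIs in E1C8Δ/Δ, against 32282 to 51522 UMIs elsewhere. As the rule rests on UMI counts, depth bears on which cells meet it. Beyond the fits on thinned cells, its part in the differences was not tested. Against Wt, 575 genes passed in E1C8Δ/Δ (4.55%, 1.91% higher and 2.63% lower) and 51 in E1C5Δ/Δ (0.403%, 0.119% higher and 0.285% lower), and directly between the mutants 703 passed (5.56%), 317 higher (2.51%) and 386 lower (3.05%) in E1C8Δ/Δ. BMP target and feedback genes were among those higher in E1C8Δ/Δ: 3 of 9 passed against Wt, 0 of 9 in E1C5Δ/Δ against Wt, and 4 of 9 between the mutants. Id3, an inhibitor of differentiation induced by BMP, was at 182, 187 and 220 CPM in Wt, 429, 349 and 289 CPM in E1C8Δ/Δ and 191, 238 and 195 CPM in E1C5Δ/Δ (adjusted p = 0.00964 between the mutants, edgeR). Bambi, a BMP-induced pseudoreceptor, was at 24.8, 26.6 and 29.5 CPM in Wt, 54.4, 46.0 and 40.0 CPM in E1C8Δ/Δ and 25.9, 28.5 and 27.6 CPM in E1C5Δ/Δ (adjusted p = 0.00788, edgeR). Msx2, a homeobox gene also induced by BMP, was at 13.4, 14.1 and 20.0 CPM in Wt, 25.6, 31.4 and 23.7 CPM in E1C8Δ/Δ and 12.9, 14.8 and 15.7 CPM in E1C5Δ/Δ. In all 3 genes the E1C8Δ/Δ libraries were above all others. Msx2 between the mutants missed the threshold without the neighbours of simulated doublets (adjusted p = 0.0640, edgeR) and with 3 Osr1 UMIs (0.143). Against Wt, Msx2 in E1C8Δ/Δ passed in 10 of 17 alternative settings, Bambi in 16 and Id3 in all 17. On cells thinned to 10000 UMIs, without E1C8Δ/Δ replicate 1, none of the 3 passed between the mutants (adjusted p from 0.0831 to 0.355, edgeR). Neither did Mki67 (0.0656) or Col2a1 (0.135), which are described next.

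Genes linked to handling moved with the E1C8Δ/Δ libraries too. Of 9 immediate-early and heat-shock genes, 5 were higher in E1C8Δ/Δ than in E1C5Δ/Δ and also 5 higher than in Wt, and their summed level was 588 to 807 CPM in Wt, 733 to 1114 CPM in E1C8Δ/Δ and 529 to 612 CPM in E1C5Δ/Δ. Jun, an immediate-early transcription factor gene, was at 130, 151 and 140 CPM in Wt, 208, 226 and 220 CPM in E1C8Δ/Δ and 141, 136 and 113 CPM in E1C5Δ/Δ. The proliferation marker Mki67 was lower in E1C8Δ/Δ, at 189, 191 and 202 CPM against 305, 316 and 325 CPM in E1C5Δ/Δ and 316, 298 and 235 CPM in Wt, while the other 7 proliferation genes did not pass between the mutants. The part of stress genes in the differences of E1C8Δ/Δ was not tested. In E1C5Δ/Δ the cartilage collagen Col2a1 was at 26.8, 21.1 and 31.6 CPM against 47.8, 62.8 and 47.8 CPM in E1C8Δ/Δ (adjusted p = 0.0126, edgeR) and 38.5, 63.8 and 56.2 CPM in Wt.

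The effect of the mutations in the posterior Osr1 cells was compared with their effect in the 31621 other mesenchymal cells of the same libraries, in a model with library as a covariate over 14283 genes. The effect differed for 14 genes (0.098%), 10 in the higher direction (0.07%) and 4 in the lower (0.028%), against 9 and 6 with DESeq2. Hoxd13, the most 5′ gene of the Hoxd cluster, had a log2 difference between mutants and Wt of −0.26 in the posterior Osr1 cells and −0.87 in the other cells, each from a fit to those cells alone. The difference of effects, from the joint model with library as a covariate, was 0.74 ± 0.11 SE (adjusted p = 0.00473, edgeR), and it need not equal the gap between the separate fits. Its mean in the other cells went from 40.6 CPM in Wt to 22.0 CPM in E1C8Δ/Δ and 22.8 CPM in E1C5Δ/Δ, and in the posterior Osr1 cells from 37.7 CPM to 25.3 and 37.5 CPM. The proximal and anterior homeobox genes Meis1, Meis2, Irx3 and Irx5 were each more positive in the posterior Osr1 cells: for Irx3 the log2 differences were 0.87 and 0.29 (adjusted p of the difference = 0.00473, edgeR) and for Meis2 0.44 and 0.16 (adjusted p = 0.0189, edgeR). Gsc, a homeobox gene outside the lists named here because it passed, was at 19.3, 40.8 and 13.4 CPM in Wt, 89.8, 72.6 and 63.4 CPM in E1C8Δ/Δ and 45.3, 47.4 and 37.3 CPM in E1C5Δ/Δ, with log2 differences of 1.11 in these cells and 0.18 in the others. The rule keeps cells with a Creb5 UMI out of the posterior Osr1 cells but not out of the other cells. The study lists Creb5, Irx3, Irx5 and Gsc among the genes of its proximal chondrogenic clusters. The part of this condition in these differences was not tested. Without Wt replicate 1 none of the genes passed in edgeR (792 at an unadjusted p under 0.05). On cells thinned to 10000 UMIs 13 genes passed, of which 1 was among the 14. The difference for Hoxd13 was then 0.35 (adjusted p = 0.915, edgeR), that for Gsc 0.58 (adjusted p = 0.112, edgeR), and that for Meis2 turned to −0.09. That fit also lacked E1C8Δ/Δ replicate 1, which had fewer than 20 posterior Osr1 cells after thinning. Without the neighbours of simulated doublets the adjusted p was 0.0884 for Irx3, 0.190 for Irx5, 0.143 for Meis1 and 0.301 for Meis2.

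**Figure D5:**
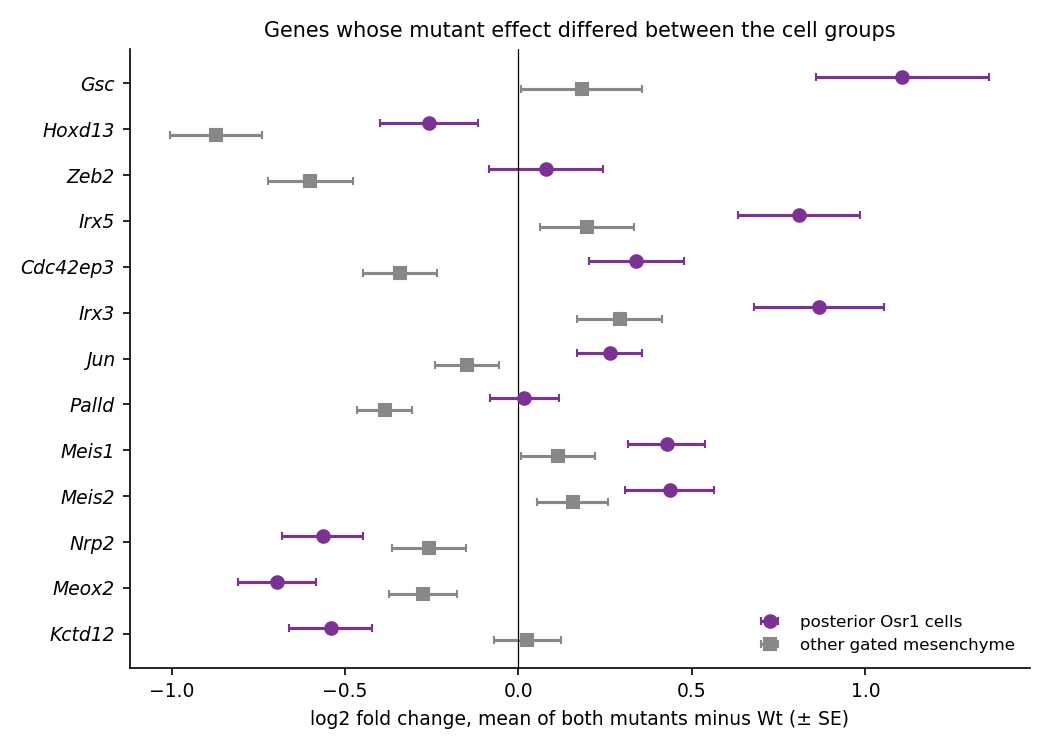
Mutant effect against Wt, as a log2 difference, in the posterior Osr1 cells and in the other mesenchymal cells of the same libraries, for 13 of the 14 genes whose effect differed (points from a separate fit to each cell group, bars are ± SE). Hoxd13 lies at −0.26 against −0.87, and Gsc, Irx3 and Irx5 are more positive in the posterior Osr1 cells.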

How the data were processed

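Single-cell RNA sequencing libraries (10x Genomics) of 9 forelimb bud samples were used. The authors deposited, for each library, a matrix of raw UMI counts per gene and barcode made with Cell Ranger 6.0.1 against mm10, and the labels also name Seurat 4.3.0.1. No deposited cell annotation was used. Cells were chosen by the UMI rule given at the opening, counts were summed per library and gate (at least 20 cells), and genes were tested with edgeR 4.0.16 in R 4.3.3 (TMM, filterByExpr, quasi-likelihood test, Benjamini-Hochberg threshold 0.05). Levels are TMM-scaled CPM over the UMIs of the genes tested, with exceptions. For cells at the thresholds, the Osr1 classes and the summed markers they are CPM of all UMIs without TMM. The same holds where a gene of the rule is given over the whole mesenchyme. The 10 genes of the rule, 4 transgene features, and genes of X, Y and mitochondria were left out of tests. Coordinates are from GENCODE M21.

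Shares were compared with two-sided exact permutation tests over libraries. Libraries are separate embryos. Replicate numbers are shared by the genotypes but are not labels of a litter or day, and libraries with the same number did not deviate together. Doublets were called from 30 nearest neighbours in 30 principal components at 0.8% per 1000 barcodes and removed in an alternative only. Other alternatives were DESeq2 1.42.0, no filter, thinning to 10000 UMIs, stricter thresholds, a replicate block, an Xist covariate and each library left out. On thinned cells E1C8Δ/Δ replicate 1 fell below 20 posterior Osr1 cells, so the tests across genes left these out there. Tests were tried on simulated counts with 200 changed genes. CPM carries counting error besides the spread between libraries, largest in the libraries with fewest cells.

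The members and the gene lists were chosen with earlier results of these data known. Named genes are the markers, the genes of the lists, up to 8 genes per direction with the largest change among those past the threshold whose mutant and Wt libraries did not overlap, and up to 6 per direction in each comparison of gates with at least 20 CPM in the higher gate, leaving out names with Gm or Rik. Genes named outside this rule were chosen after their values were seen. Some genes that these rules would name are not reported here.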

Additional observations from a re-analysis of the deposited data

Results flagged for a closer look

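The test of a different mutant effect in the posterior Osr1 cells than in the other mesenchymal cells of the same libraries singled out 14 genes, listed here with the log2 effect in the posterior Osr1 cells minus that in the other cells. The higher direction held Gsc (0.85), Hoxd13 (0.74), Zeb2 (0.70), Irx5 (0.63), Cdc42ep3 (0.58), Irx3 (0.57), Jun (0.38), Palld (0.37), Meis1 (0.32) and Meis2 (0.27). The lower direction held Nrp2 (−0.30), Meox2 (−0.42), Kctd12 (−0.56) and Olfr655 (−1.88). Olfr655 rests on 110 UMIs in the posterior Osr1 cells and could not be tested there alone. Gsc, Zeb2, Cdc42ep3, Palld, Nrp2, Meox2, Kctd12 and Olfr655 are on none of the gene lists and were named after their values were seen.

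Meox2, a homeobox gene of mesenchymal and muscle precursor programmes, was at 105, 79.0 and 110 CPM in Wt, 73.4, 75.6 and 73.4 CPM in E1C8Δ/Δ and 55.7, 44.0 and 45.7 CPM in E1C5Δ/Δ. It fell in the posterior Osr1 cells (joint log2 difference −0.70, adjusted p = 0.0188, edgeR), and in the other cells the difference was −0.28 with an adjusted p of 0.177. The difference of effects did not pass on cells thinned to 10000 UMIs (−0.365, adjusted p = 0.824, edgeR). Nor did it pass without the neighbours of simulated doublets (−0.371, adjusted p = 0.0727, edgeR).

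The mutant genotypes themselves differed within the posterior Osr1 cells, where 703 genes passed between E1C8Δ/Δ and E1C5Δ/Δ. Every E1C8Δ/Δ library had a lower median depth in these cells than every other library. Without E1C8Δ/Δ replicate 2, the shallowest library per cell, 128 passed, and on cells thinned to 10000 UMIs 104 did.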

How the results depend on the processing

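Counts of genes past the threshold moved with the processing. Without the filter on low counts 489 genes passed in both mutants against Wt (53 as reported), 1205 in E1C8Δ/Δ (575), 414 in E1C5Δ/Δ (51), 1335 between the mutants (703), 134 for the difference of effects (14) and 1840 against Osr1 cells without Hand2 (984). With DESeq2 170 passed in both mutants and 95 in E1C5Δ/Δ. On cells thinned to 10000 UMIs 168 passed in E1C8Δ/Δ, 6 in E1C5Δ/Δ, 104 between the mutants, 1832 against Shh cells (4044), 79 against Osr1 cells without Hand2 and 1788 against Hand2 cells without Osr1 (3739), and of the 13 genes then called for the difference of effects 1 was among the 14 reported. Without doublet calls 30 passed in E1C5Δ/Δ and 7 for the difference of effects, and with 3 Osr1 UMIs 328 against Osr1 cells without Hand2. With Xist as a covariate 12, 204 and 9 passed in both mutants, E1C8Δ/Δ and E1C5Δ/Δ. With 1 library left out in turn, the counts ranged from 14 (without Wt replicate 3) to 160 (without E1C5Δ/Δ replicate 3) in both mutants, from 93 (without E1C8Δ/Δ replicate 2) to 960 (without E1C5Δ/Δ replicate 3) in E1C8Δ/Δ, from 14 to 45 in E1C5Δ/Δ, from 128 to 855 between the mutants, from 0 to 19 for the difference of effects and from 585 to 971 against Osr1 cells without Hand2. The share difference of the posterior Osr1 cells (−2.72 points, p = 0.0595) passed on thinned cells (−1.85), with 3 Osr1 UMIs (−2.62) and with 2 Hand2 UMIs (−3.18, exact permutation tests), and not without doublet calls (−2.69, p = 0.0833), as a share of all cells of good quality (−1.35, p = 0.119) or with 1 library left out in turn (p from 0.0536 to 0.214, exact permutation tests). With a Wt library left out the smallest exact permutation p possible was 0.0357, and with a mutant library left out it was 0.0179. The cause of the shifts in counts and in the share was not tested.

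The replicate number as a block gave 29 genes in both mutants, 259 in E1C8Δ/Δ, 20 in E1C5Δ/Δ and 368 between the mutants, and same-numbered libraries correlated between −0.39 and 0.069 in their deviations, so the numbers did not pair them. Libraries of different numbers correlated between −0.40 and 0.61, highest for Wt replicate 1 with E1C5Δ/Δ replicate 3. Whether a batch without a label lies behind this was not tested. The comparisons of gates and of effects already held library as a term.

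Few directions turned. Of those that did, the difference of effects of Meis2 was a call as reported, and that of Hoxd13 against Hand2 cells without Osr1 became one. Prdm1 in both mutants (0.19) went to −0.21 on thinned cells, to −0.13 with Xist, and ranged from −0.016 to 0.31 with 1 library left out. Meis2 went to −0.092 for the difference of effects on thinned cells. Gli1 against Shh cells ranged from −0.073 to 0.16 with 1 library left out. Ptch1 against Hand2 cells without Osr1 went to 0.0076 without doublet calls and ranged from −0.040 to 0.014 with 1 library left out, and Hoxd13 in that comparison went from −0.22 (adjusted p = 0.180, edgeR) to 0.27 on thinned cells, where it passed (adjusted p = 0.0247, edgeR), while it passed in the lower direction without the filter (−0.23), with 2 Hand2 UMIs (−0.40) and without E1C5Δ/Δ replicate 3 (−0.37).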

Other observations

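On chromosome 2, which carries Grem1 and the deleted enhancers, lay 7 of the 33 genes that fell in the posterior Osr1 cells of the mutants (21.2%), namely Trp53i11, Fmn1, Grem1, Dph6, Map1a, Slc30a4 and Rrbp1, against 8.08% of the 12648 genes tested. With 1 library left out in turn, the call of Fmn1 passed in 2 of 9 fits and that of Grem1 in 5 of 9. Of the 20 genes that rose, 1 was on that chromosome, Snhg17. The genes were picked out by position after their values were seen, and linkage to the deleted alleles was not tested.

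Snhg1 and Snhg5, host genes of small nucleolar RNAs chosen here after their values were seen, were on none of the lists. Snhg1 averaged 240 CPM in Wt, 660 ± 7.98 CPM in E1C8Δ/Δ (SD, n = 3) and 295 ± 45.9 CPM in E1C5Δ/Δ (SD, n = 3), and Snhg5 40.4, 181 and 48.2 CPM. The summed immediate-early and heat-shock genes reached their highest value in E1C8Δ/Δ, in ranges that overlapped Wt, and whether handling of those samples bears on these 2 transcripts was not tested.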
